A study of Mus musculus with 11 samples.

Results

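Axin2, Nkd1, Wif1, Dkk1, Apcdd1, Lgr5, Rnf43, Sp5, Sostdc1 and Lef1, 10 genes known as feedback regulators or transcriptional targets of Wnt signalling, were followed in mammary tumours of MMTV-Neu mice. They were taken as every array feature whose platform gene symbol was one of these names. All 10 genes were present in both value tables, on 17 of 45220 features in the table of DMBA-treated tumours and on 10 of 22575 features in the table of untreated tumours. Of 19087 and 16887 named genes in these tables, 16351 were in both.

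The series concerns mammary tumours induced by dimethylbenzanthracene (DMBA), a polycyclic hydrocarbon carcinogen, in transgenic mice, and the effects of rexinoids. The 5 tumours called DMBA 1 to 5 came from DMBA-treated MMTV-Neu+/- mice, and the 6 tumours called untreated 1 to 6 came from untreated mice of the same genotype. MMTV-Neu mice carry Neu, the rodent form of the receptor ErbB2, under the mouse mammary tumour virus promoter, which is active mainly in mammary epithelium, so every tumour of both groups carried this oncogene. The p53-deficient and rexinoid-treated animals named in the series title were not analysed here. Age, strain background and DMBA dose are not given in the sources used here, and whether each tumour is from a different animal is not stated. The titles of DMBA 3 and DMBA 4 share their first number. The p-values below therefore measure only the spread between these tumours.

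Each array set total RNA of 1 tumour against a whole mouse reference RNA, and each value is the deposited log ratio of the pair. The base of the logarithm is not stated and was taken as 2. The direction, tumour over reference, is likely but not settled. The labels name the pair in that order and give Cy3 as the reference dye, but where the tumour's dye should stand they give a kit name. Read that way, the medians of lists of liver, muscle and brain genes lay below 0 on every array, although single brain genes did not. A negative value therefore means a lower level in the tumour than in a mixture of whole mouse RNA, not lower than in normal mammary gland. The arrays hold bulk RNA, in which fewer cells of a type and less RNA per cell cannot be told apart. Untreated 2 stood apart from the other untreated tumours. Erbb2, the mouse gene of this receptor, had a log2 ratio of 0.86 there and from 2.40 to 3.56 in the others, and from 1.32 to 1.70 with DMBA. Probe sequences were not used, so whether these values include RNA of the Neu transgene is not known. No counts or spot intensities were used, so the number of arrays limits the precision.

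In the canonical Wnt pathway, secreted Wnt proteins bind Frizzled receptors with the co-receptors LRP5 and LRP6. Binding stops a destruction complex from degrading β-catenin, which then enters the nucleus and activates genes together with TCF and LEF factors. Many of the activated genes encode inhibitors of the pathway, so their RNA is widely used as a readout of signalling. In the mammary gland, Wnt signalling is known for its part in basal and stem cell maintenance, and the mammary tumour virus itself can activate Wnt genes by insertion.

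Most of these genes read far below the reference in both groups, and Rnf43 alone among the 10 read above it. In DMBA-treated tumours 8 of the 10 were called lower, 1 was called higher and Lef1 was not called (limma, adjusted p under 0.05 over all genes). In the same fit 31.7% of all genes were called lower and 26.1% higher. In untreated tumours 9 were called lower and 1 higher, against 32.1% of all genes called lower and 28.8% called higher. The median of the 10 mean log2 ratios was -3.03 in DMBA-treated and -2.49 in untreated tumours, beside -0.02 and 0.0 over all genes. At least 4-fold lower levels were seen for 7 members with DMBA and 8 without, compared with 8.84% and 7.85% of all genes. The genes were therefore placed mostly in the low tail of both tables, with Rnf43 in the high tail. The members were chosen with earlier results of these data known, so this placement is a description and not a test.

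**Figure D1:**
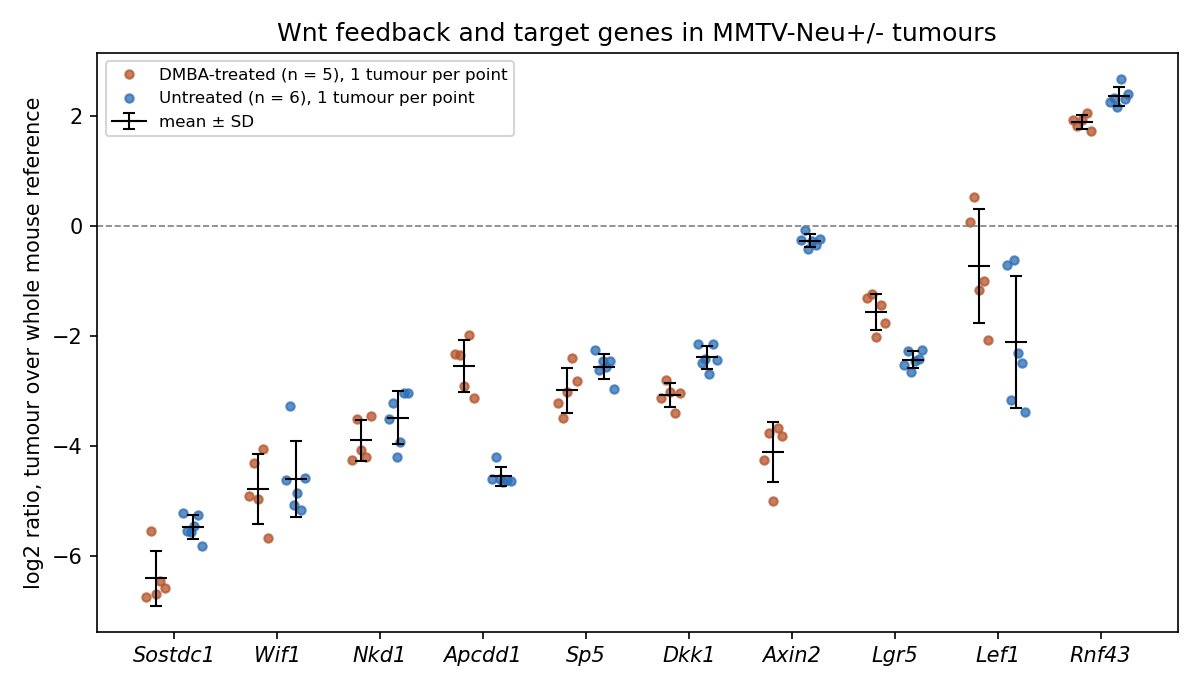
Log2 ratio of tumour over whole mouse reference (vertical axis) for the 10 genes (horizontal axis, ordered by mean), with 1 point per tumour and bars for the mean ± SD of 5 DMBA-treated and 6 untreated tumours. Sostdc1 and Wif1 are the lowest, Rnf43 lies above 0 in every tumour, Axin2 separates the groups by 3.84, and the points of Lef1 are the most scattered.

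The sequences upstream of 4 of the genes are shown because the list is defined by Wnt response and TCF and LEF factors bind a short DNA core. In RefSeq (build GRCm38.p6) upstream entries matched 7 of the 10 symbols, with 11 start sites in all, while Apcdd1, Lgr5 and Sostdc1 have no entry listed. The 250 bases before each start site were searched on both strands for the core CTTTG and for the longer forms CTTTGAA and CTTTGAT, each of which contains the core. The core was found in 7 of the 11 member windows and a longer form in 2. Among 32851 windows of 27025 genes, 48.6% held the core and 7.48% a longer form. The windows of Sp5 (chr2:70474673-70474922, plus strand) and Dkk1 (chr19:30549497-30549746, minus strand) held 4 cores each, a number reached by 0.773% of all windows. The windows of Axin2 (chr11:108920099-108920348, plus strand) and of 1 Rnf43 start site (chr11:87662837-87663086, plus strand) held none, nor did the other Rnf43 window and that of Nkd1. Of the 7 windows with a core, 4 belonged to Lef1, and 2 of those overlapped almost wholly. All are written 5′ to 3′ in the direction of the gene, with capitals marking the core on either strand (CAAAG where it lies on the other strand).
Sp5: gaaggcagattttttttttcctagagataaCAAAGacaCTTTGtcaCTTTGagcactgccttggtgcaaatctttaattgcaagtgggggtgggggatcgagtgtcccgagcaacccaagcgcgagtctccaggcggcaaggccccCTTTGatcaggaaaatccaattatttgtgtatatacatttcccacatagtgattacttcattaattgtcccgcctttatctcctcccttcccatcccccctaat
Dkk1: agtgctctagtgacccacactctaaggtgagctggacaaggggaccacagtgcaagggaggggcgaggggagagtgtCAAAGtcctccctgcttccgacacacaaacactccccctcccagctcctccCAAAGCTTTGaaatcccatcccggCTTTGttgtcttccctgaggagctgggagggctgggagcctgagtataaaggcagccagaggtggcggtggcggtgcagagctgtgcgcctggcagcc
Axin2: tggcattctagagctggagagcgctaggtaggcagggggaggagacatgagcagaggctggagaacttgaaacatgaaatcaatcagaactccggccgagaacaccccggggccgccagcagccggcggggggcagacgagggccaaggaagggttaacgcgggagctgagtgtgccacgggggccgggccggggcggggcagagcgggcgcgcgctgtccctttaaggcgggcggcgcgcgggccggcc
Rnf43: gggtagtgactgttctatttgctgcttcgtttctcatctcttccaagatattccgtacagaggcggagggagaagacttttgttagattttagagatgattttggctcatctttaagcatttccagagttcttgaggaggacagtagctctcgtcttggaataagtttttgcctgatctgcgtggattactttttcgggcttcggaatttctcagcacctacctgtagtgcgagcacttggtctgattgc
The genes with 4 cores and those with none both include members that read far below the reference, and the gene that read above it, Rnf43, had none in the window shown. A match of letters is a description of these windows and not a binding site.

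Of the feedback inhibitors inside the cell, Nkd1 was low in both groups while Axin2 was low with DMBA and near the reference without it. Axin2 encodes a scaffold of the β-catenin destruction complex and is the pathway's best known feedback target. Its log2 ratios in DMBA 1 to 5 were -4.25, -3.75, -5.00, -3.68 and -3.82, a mean of -4.10 ± 0.55 (SD, n = 5) or 17.2-fold lower than the reference (adjusted p = 6.06e-06). In untreated 1 to 6 they were -0.25, -0.06, -0.41, -0.27, -0.35 and -0.23, a mean of -0.26 ± 0.12 (SD, n = 6), 1.2-fold lower (adjusted p = 0.0208). Every DMBA-treated tumour thus lay below every untreated tumour, with a wide empty range between the groups. This contrast rests on 1 feature in each table, and spot intensities were not used. Group and table cannot be told apart, so it was not tested. The low value with DMBA was among the lowest in the table, where 1.22% of genes had a lower mean, but 34.5% did in untreated tumours. The untreated call was small in size and was lost when untreated 3 (-0.23, adjusted p = 0.0584) or untreated 5 (-0.25, adjusted p = 0.0578) was left out.

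Nkd1 encodes a protein that binds Dishevelled and dampens the signal downstream of the receptor. Its log2 ratios in DMBA 1 to 5 were -4.24, -3.51, -4.06, -4.20 and -3.46, with a mean of -3.89 ± 0.38 (SD, n = 5), 14.9-fold lower (adjusted p = 2.3e-06). In untreated tumours they ran from -4.19 through a median of -3.36 to -3.03, with a mean of -3.48 ± 0.48 (SD, n = 6), 11.2-fold lower (adjusted p = 9.77e-08). The groups overlapped, so Nkd1 did not follow the separation seen for Axin2.

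At the cell membrane, the inhibitor Apcdd1 and the R-spondin receptor Lgr5 were low, and the ubiquitin ligase Rnf43 was high. Rnf43 removes Frizzled receptors from the cell surface, and R-spondins bound to Lgr receptors block this removal. Rnf43 read 1.92, 1.82, 1.94, 2.06 and 1.73 in DMBA 1 to 5, a mean log2 ratio of 1.89 ± 0.12 (SD, n = 5), 3.71-fold higher than the reference (adjusted p = 6.12e-06). In untreated tumours it ran from 2.16 through 2.32 to 2.67, with a mean of 2.36 ± 0.17 (SD, n = 6), 5.12-fold higher (adjusted p = 2.35e-08). All 11 tumours lay above 0, within a narrow range in each group, and 97.6% and 99.0% of genes had a lower mean. The lowest untreated tumour was above the highest DMBA-treated one, a gap in means of 0.46.

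Lgr5 also marks stem cells of several epithelia and is itself a Wnt target. Its gene-level log2 ratios in DMBA 1 to 5 were -1.31, -1.24, -2.01, -1.44 and -1.77, with a mean of -1.55 ± 0.33 (SD, n = 5), 2.93-fold lower (adjusted p = 0.000105). The untreated tumours ran from -2.65 through -2.43 to -2.24, with a mean of -2.42 ± 0.15 (SD, n = 6), 5.36-fold lower (adjusted p = 1.53e-08). The groups did not overlap at this level, although the DMBA mean joins a feature near 0 with one far below it.

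Apcdd1 encodes a membrane glycoprotein that binds Wnt and its co-receptors and inhibits signalling. Its gene-level values in DMBA 1 to 5 were -2.33, -2.34, -2.91, -1.97 and -3.13, with a mean log2 ratio of -2.54 ± 0.47 (SD, n = 5), 5.8-fold lower (adjusted p = 3.3e-05). In untreated tumours it ran from -4.64 through -4.61 to -4.19, with a mean of -4.54 ± 0.18 (SD, n = 6), 23.3-fold lower (adjusted p = 5.88e-10). The groups did not overlap, and as with Lgr5 the DMBA mean combines features that read differently.

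The 3 secreted inhibitors were low in all 11 tumours, and Sostdc1 was the lowest of the 10 genes. Sostdc1 antagonises bone morphogenetic proteins and also binds the co-receptor LRP6. Its log2 ratios in DMBA 1 to 5 were -6.74, -5.54, -6.69, -6.45 and -6.58, with a mean of -6.40 ± 0.50 (SD, n = 5), 84.4-fold lower (adjusted p = 1.15e-06). The untreated tumours ran from -5.81 through -5.49 to -5.21, with a mean of -5.47 ± 0.22 (SD, n = 6), 44.2-fold lower (adjusted p = 4.41e-10). Only 0.0524% of genes with DMBA and 0.201% without had a lower mean. DMBA 2 was the only DMBA-treated tumour within the untreated range.

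Wif1 binds Wnt proteins outside the cell. It read -4.89, -4.29, -4.96, -4.05 and -5.67 in DMBA 1 to 5, a mean log2 ratio of -4.77 ± 0.63 (SD, n = 5), 27.3-fold lower (adjusted p = 5.2e-06). In untreated tumours it ran from -5.16 through -4.73 to -3.28, with a mean of -4.59 ± 0.69 (SD, n = 6), 24.1-fold lower (adjusted p = 1.15e-07). The groups overlapped in part, with untreated 2 above every DMBA-treated tumour and DMBA 5 below every untreated one.

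Dkk1 binds LRP5 and LRP6 and keeps them from Wnt. Its log2 ratios in DMBA 1 to 5 were -3.13, -2.79, -3.01, -3.39 and -3.03, with a mean of -3.07 ± 0.22 (SD, n = 5), 8.39-fold lower (adjusted p = 1.72e-06). The untreated tumours ran from -2.68 through -2.42 to -2.14, with a mean of -2.38 ± 0.21 (SD, n = 6), 5.21-fold lower (adjusted p = 3.51e-08). As the mean of its 2 DMBA features, Dkk1 was lower in every DMBA-treated tumour than in any untreated one. The higher of those features read -2.52 in DMBA 2 and -2.50 in DMBA 5, above the lowest untreated tumour, so on that feature the groups overlapped.

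Of the transcription factors, Sp5 was uniformly low and Lef1 differed from tumour to tumour. Sp5 is a zinc finger factor induced by Wnt in many tissues. It read -3.22, -3.49, -3.02, -2.39 and -2.81 in DMBA 1 to 5, a mean log2 ratio of -2.98 ± 0.42 (SD, n = 5), 7.91-fold lower (adjusted p = 9.54e-06). The untreated tumours ran from -2.96 through -2.51 to -2.26, with a mean of -2.55 ± 0.24 (SD, n = 6), 5.86-fold lower (adjusted p = 3.23e-08). The groups overlapped.

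Lef1 encodes a DNA-binding partner of β-catenin and is also strongly expressed in T cell precursors and hair follicle mesenchyme. Its log2 ratios in DMBA 1 to 5 were 0.08, 0.53, -1.16, -0.997 and -2.07, a mean of -0.72 ± 1.04 (SD, n = 5) with a 95% confidence interval from -1.60 to 0.15 (adjusted p = 0.134). In untreated 1 to 6 they were -0.70, -3.15, -0.62, -2.30, -2.48 and -3.38, a mean of -2.10 ± 1.19 (SD, n = 6), 4.3-fold lower (adjusted p = 0.000956). Lef1 was below 0 in 3 of 5 DMBA-treated and in all 6 untreated tumours, and the groups overlapped. Without DMBA 2, the tumour with the highest value, the DMBA mean was -1.04 and passed the threshold (adjusted p = 0.0468). Leaving out each DMBA-treated tumour in turn gave adjusted p-values from 0.0468 to 0.341.

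The spread of Lef1 was among the widest in both tables. Its SD exceeded that of 95.8% of genes with DMBA and 99.1% without. The median SD of the 10 members was 0.44 and 0.22, beside 0.32 and 0.28 over all genes. Wif1 also varied widely (84.6% and 94.8% of genes had a smaller SD). The mean of the 2 Rnf43 features was among the tightest in DMBA-treated tumours (5.82% of genes had a smaller SD). The single Rnf43 features had SDs of 0.20 and 0.25 there, and their mean 0.12. The SD of Axin2 exceeded that of 79.3% of genes with DMBA and of 5.12% without.

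Where a gene had several features in the DMBA table, these did not always read alike. At feature level 10 of the 17 were called lower, 2 higher and 5 were not called in DMBA-treated tumours, against 27.5% of all features called lower and 23.0% called higher. In untreated tumours 9 of 10 were called lower, against 30.1% of all features, and 1 higher. All 5 uncalled features belonged to Lef1, Lgr5 and Apcdd1.

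For Lgr5, the feature listed under NM_010195 read -3.14, -2.95, -3.48, -3.13 and -3.09 in DMBA 1 to 5 (mean -3.16 ± 0.20, SD, n = 5, adjusted p = 2.95e-06). The feature listed under AK047873 read 0.53, 0.48, -0.54, 0.25 and -0.44 in the same tumours (mean 0.06 ± 0.51, adjusted p = 0.842). One feature was thus far below the reference in every tumour and the other scattered around it, 3.21 apart in their means. A gap of at least 3 occurred in 3.62% of the 8343 genes with several features, whose median gap was 0.71.

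For Apcdd1, the feature under AK157407 averaged -4.29 ± 0.18 (SD, n = 5, adjusted p = 2.34e-06) and that under AK048654 averaged -2.11 ± 0.43 (adjusted p = 9.82e-05). The feature under AK172004 read -1.04, -0.07, -2.06, 0.02 and -2.93 (mean -1.22 ± 1.28, adjusted p = 0.0637). These 3 features ranged from uniformly low to scattered, a span of 3.07 in their means.

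The 3 features of Lef1 all missed the threshold but differed in level. The feature under AK042137 read 0.47, 1.28, -0.14, -0.02 and 0.00 (mean 0.32 ± 0.59, adjusted p = 0.288). The feature under AK083328 read -0.04, -0.08, -2.01, -1.47 and -3.90 (mean -1.50 ± 1.60, adjusted p = 0.0651), and that under NM_010703 read -0.21, 0.39, -1.31, -1.50 and -2.32 (mean -0.99 ± 1.08, adjusted p = 0.0731). DMBA 5 was the lowest tumour in the last 2 of these, and DMBA 1 and 2 were the highest. The features of Dkk1 and Rnf43 were closer together, with gaps of 0.67 and 0.41.

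**Figure D2:**
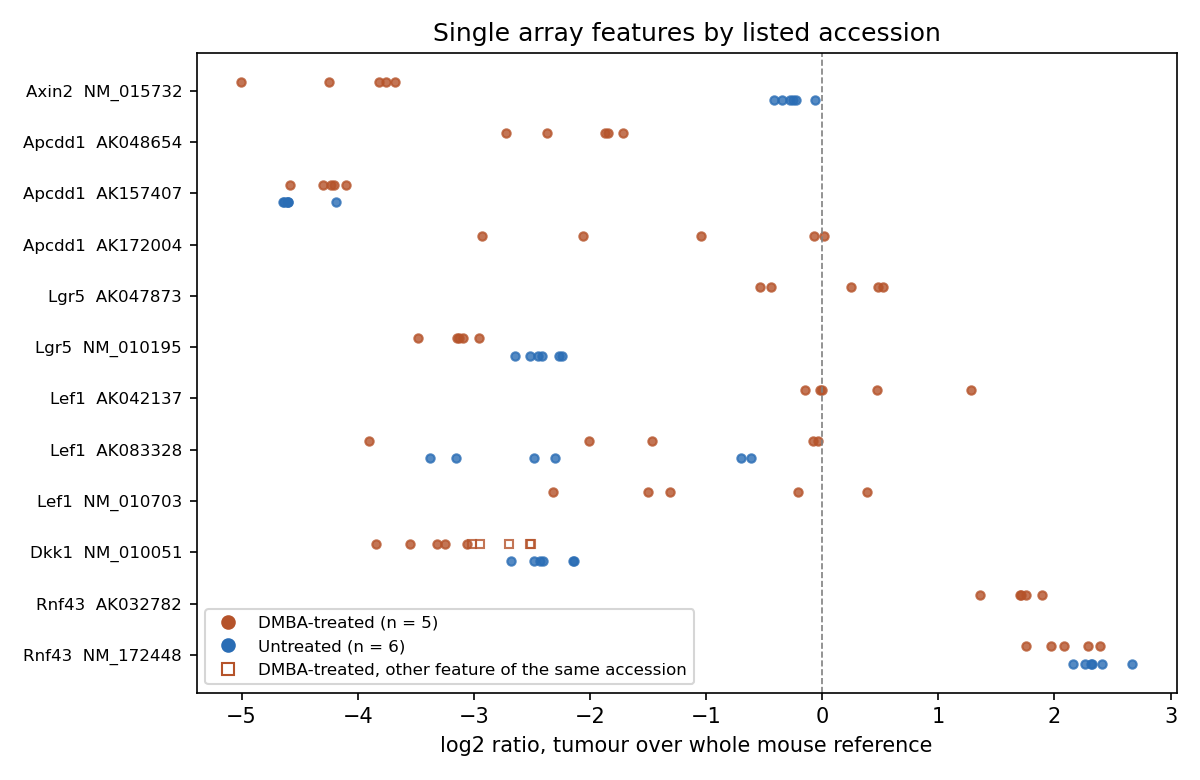
Log2 ratio of tumour over reference (horizontal axis) for single features of 6 of the genes, named by the accession listed for them (vertical axis), with 1 point per tumour and squares for another feature of the same accession. Axin2, with only 1 feature in each table, separates the groups. The Apcdd1 feature under AK157407 overlaps between them.

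The question of whether DMBA treatment went with a different level of these genes could be addressed only by setting the groups side by side. The tables come from different array platforms with different feature sets, each covering 1 group. Group, platform and table therefore cannot be told apart, and no test was made. By the rule that values do not overlap and means differ by at least 1, Axin2 and Apcdd1 stood apart, and 8.34% of the 16351 genes in both tables did so. Axin2 was 3.84 lower with DMBA, a difference as large as or larger than which was seen in 0.116% of genes. Apcdd1 was 2.01 higher with DMBA (1.68% of genes). By non-overlap alone 5 members qualified (Axin2, Apcdd1, Rnf43, Lgr5 and Dkk1), against 18.2% of genes. The means of Rnf43, Lgr5 and Dkk1 differed by less than 1, those of Sostdc1, Sp5, Nkd1 and Wif1 by less than 1 with overlapping values, and that of Lef1 was 1.38 higher with DMBA with overlapping values.

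The comparison was repeated on features listed under the same accession in both tables, an alternative chosen after seeing the data. Axin2 had 1 feature in each table, both under NM_015732, so this comparison could not change its difference of 3.84, which 0.086% of the 16272 shared accessions matched or exceeded. Apcdd1 (AK157407) averaged -4.29 with DMBA and -4.54 without, a difference of 0.26 with overlapping values. The gene-level separation of Apcdd1 was thus not seen on the shared accession. Lgr5 (NM_010195) averaged -3.16 and -2.42, so it was 0.74 lower with DMBA, without overlap, where the gene-level mean was 0.87 higher. Rnf43 (2.10 and 2.36) and Lef1 (-1.50 and -2.10) overlapped. Over all shared accessions 7.39% stood apart. The same accession does not make the probes the same, and probe sequences were not used here.

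Marker lists of the cell types that the tumours could hold gave the following values. Their counts stand beside 31.7% of all genes called lower and 26.1% higher with DMBA, and 32.1% and 28.8% without it. Luminal epithelial markers were called higher for 13 of 14 genes with DMBA and 12 of 14 without (medians 2.62 and 2.65). The largest over both groups together were Elf5, a factor of alveolar differentiation (4.04 ± 0.19 and 3.87 ± 0.31), and the milk protein Csn3 (5.60 ± 0.16 and 3.05 ± 0.75). In untreated tumours alone Lalba (3.14) and St14 (3.10) lay above Csn3. All 10 basal and myoepithelial markers were called lower in both groups (medians -2.70 and -2.67), among them Cnn1 (-4.59 and -4.63) and Krt5 (-2.81 and -3.65). Fibroblast markers were called lower for 10 of 11 and 11 of 11 genes (medians -3.53 and -3.35), among them Lum (-6.57 and -6.12) and Dcn (-4.10 and -4.92). Basal and stromal genes thus read low beside the low Wnt inhibitors, and their part in those values was not tested.

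Hair and skin markers were called lower for 7 of 8 and 8 of 8 genes (medians -3.38 and -3.75), among them Lor (-4.90 and -4.76) and Krt25 (-4.59 and -3.29). Adipocyte markers were called lower for 5 of 6 genes in both groups (medians -4.14 and -3.94), with Cidec at -5.53 and -5.66 and Plin1 at -4.41 and -5.25. Endothelial markers were called lower for 7 of 7 and 6 of 7 genes (medians -1.01 and -1.21), with Cldn5 at -2.52 and -3.30 and Tek at -1.76 and -2.12. Immune lists lay near the reference. T and NK cell markers were called lower for 3 and 2 of 7 genes (medians -0.03 and -0.18), with Cd3d at -2.19 and -1.11 and Cd8a at -1.25 and -0.61. Macrophage markers were called lower for 1 of 4 and 2 of 5 genes (medians -0.23 and -0.13), with Mrc1 at -2.81 and -2.84 and C1qa at 0.95 and 1.02.

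Among DMBA-treated tumours the order of the gene-level Lef1 mean from highest to lowest (2, 1, 4, 3, 5) was also that of the fibroblast list and of the T and NK cell list. No single Lef1 feature had exactly this order. Of its 3 features, 1 had DMBA 1 above DMBA 2, 1 had DMBA 3 above DMBA 4 and 1 had DMBA 3 lowest. The means of the fibroblast list in DMBA 1 to 5 were -2.94, -2.77, -4.03, -3.59 and -4.21. Those of the T and NK cell list were -0.39, -0.19, -0.62, -0.55 and -1.02. The endothelial list had nearly this order (-1.18, -0.86, -1.34, -1.34 and -1.85), with DMBA 3 and 4 all but tied, and the hair and skin list did not (-3.33, -2.90, -3.38, -3.47 and -3.15). The lists were picked for this comparison after their values were seen. In untreated tumours neither the fibroblast nor the T and NK cell list had it, since Lef1 was highest in untreated 3 and 1 and lowest in 6 and 2. There the fibroblast list was highest in untreated 6 (-3.02) and the T and NK cell list in untreated 4 (0.23). With 5 and 6 tumours these orders are descriptions, and the part of either cell type in Lef1 was not tested.

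In untreated 2, the tumour with the low Erbb2 value, members lay on both sides of the others. The basal list averaged -2.04 in untreated 2 and from -2.94 to -2.37 in the other untreated tumours, and from -2.68 to -2.43 with DMBA. Lgals7, a gene of this list, ranged from -4.25 to 1.49 among untreated tumours, so the untreated means depend in part on it. The adipocyte (-3.31), hair and skin (-3.47) and endothelial (-1.17) lists were also highest in untreated 2 among the untreated tumours, by smaller margins than the basal list. So were the means of the muscle (-3.12) and brain (-1.73) lists, but not that of the liver list. The fibroblast list was highest in untreated 6 (-3.02) and next in untreated 2 (-3.44). In untreated 2 the T and NK cell list (-0.51) was lowest, and the macrophage (-0.52) and luminal (2.04) lists were second lowest. Wif1, Apcdd1 and Axin2 were highest there, whereas Lef1 (-3.15), Dkk1 (-2.48) and Sp5 (-2.62) were each second lowest. Without it Wif1 averaged -4.86 (adjusted p = 1.38e-08) and Apcdd1 -4.62 (adjusted p = 8.14e-09), so both calls stood. The part of these lists or of the Erbb2 difference in these values was not tested.

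**Figure D3:**
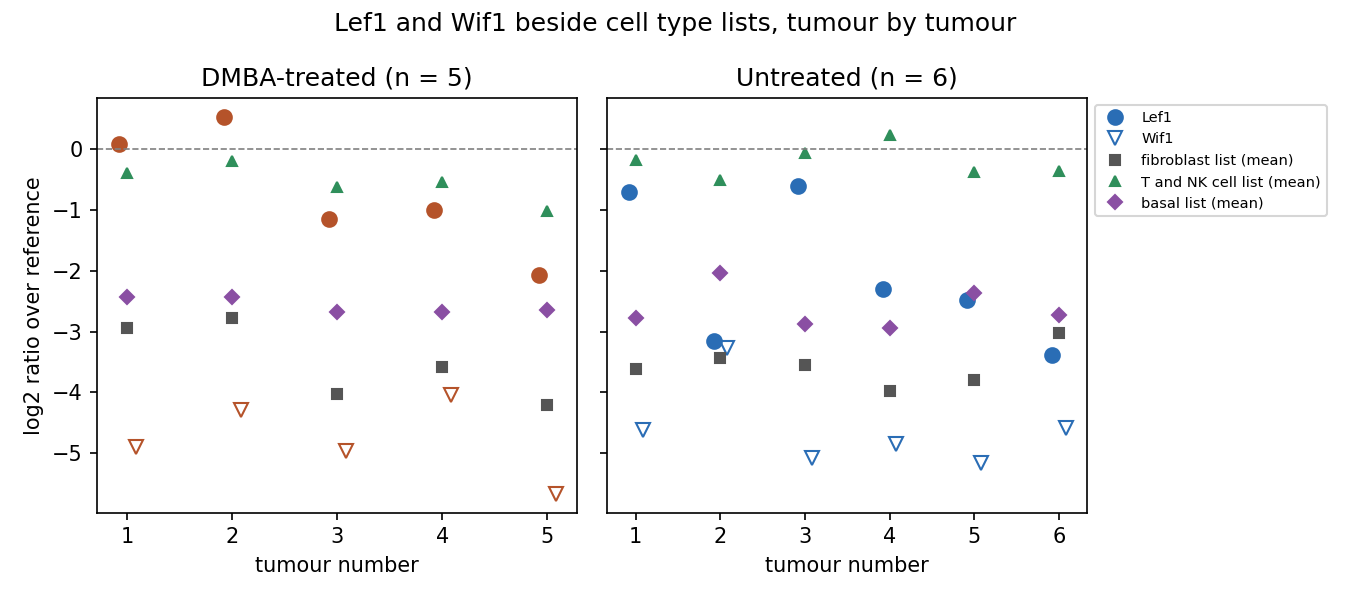
Log2 ratio over reference (vertical axis) of Lef1 and Wif1 beside the mean of 3 cell type lists in each tumour (horizontal axis, tumour number), with DMBA-treated tumours in the left panel and untreated tumours in the right. With DMBA, the mean of the Lef1 features and the fibroblast and T and NK cell lists share 1 order, which no single Lef1 feature has. In untreated 2 Wif1 and the basal list are the highest of the group, and the T and NK cell list is the lowest.

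Lists of other genes of the pathway had medians from -0.56 to 0.54, nearer the reference than those of the 10 members (-3.03 and -2.49). Of 22 other Wnt targets measured in the DMBA table, 9 were called lower, 8 higher and 5 were not called, with a median of 0.06. Of 21 measured in untreated tumours, 6 were lower, 8 higher and 7 not called, with a median of -0.13. Called alike in both groups were Ccn4, a matricellular protein (-1.99 ± 1.06, adjusted p = 0.00342, and -2.40 ± 0.42, adjusted p = 7.23e-07), and the secreted growth factor Bmp4 (-1.61 ± 0.12 and -1.60 ± 0.22), both low. The transcriptional regulators Id2 (1.68 ± 0.24 and 1.94 ± 0.40) and Myc (1.08 ± 0.47 and 1.11 ± 0.58) were both called higher. Over all genes, 31.7% were called lower and 26.1% higher with DMBA, and 32.1% and 28.8% without it. Known Wnt targets outside the 10 genes therefore lay on both sides of the reference, as did genes in general.

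Core signalling components read mostly at or above the reference. With DMBA 2 of 25 were called lower, 15 higher and 8 were not called (median 0.54), and without it 5 were lower, 11 higher and 9 not called (median 0.09). The all-gene shares called lower and higher were 31.7% and 26.1% with DMBA and 32.1% and 28.8% without it. The co-receptor Lrp5 was at 3.99 ± 0.38 (adjusted p = 2.08e-06) and 2.47 ± 0.54 (adjusted p = 2.28e-06), and Lrp6 at 1.49 ± 0.21 and 1.22 ± 0.51. The repressor Tcf7l1 was at -1.02 ± 0.37 and -1.60 ± 0.41, and the β-catenin co-factor Pygo1 at -1.08 ± 0.43 and -0.59 ± 0.59. Ctnnb1, which encodes β-catenin itself, was not called in either group (-0.31 ± 0.28, adjusted p = 0.0807, and -0.21 ± 0.21, adjusted p = 0.0916). It was named after its values were seen.

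Among extracellular regulators other than the members, 10 of 19 were called lower, 2 higher and 7 were not called with DMBA (median -0.56), and 7 of 18 were lower, 6 higher and 5 not called without it (median -0.11). Beside these counts, 31.7% of all genes were called lower and 26.1% higher with DMBA, and 32.1% and 28.8% without it. The largest were ligands and inhibitors. Rspo1, a ligand of the Lgr receptors, was at -4.29 ± 0.59 (adjusted p = 6.44e-06) and -3.58 ± 0.53 (adjusted p = 1.32e-07), and Rspo2 at -2.31 ± 0.16 and -1.98 ± 0.17. Dkk2 was at -3.06 ± 0.68 and -1.84 ± 0.37, and Dkk3, a divergent family member, at -2.82 ± 0.68 and -4.02 ± 0.61. Their relatives did not all read low. Rspo3 was at -1.001 ± 0.43 (called lower) and -0.08 ± 0.63 (not called), and Rspo4 at -0.08 ± 0.42 (not called) and 0.69 ± 0.71 (called higher). Dkk4 was not called in either group (-0.37 and -0.16) and Dkkl1 was called higher in both (1.45 ± 1.33 and 1.12 ± 1.25). These 4 genes were named after their values were seen.

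Of the 62 genes of these lists in the untreated table, 6 stood apart between the groups by the rule used for the members, a share near the 8.34% over all genes. Lrp5 and the transcription factor Sox9 (2.09 ± 0.17 and -0.72 ± 0.12) were higher with DMBA. The Notch ligand Jag1 (-1.25 ± 0.60 and -0.16 ± 0.16), the Dkk co-receptors Kremen1 (0.08 ± 0.14 and 2.32 ± 0.99) and Kremen2 (-1.98 ± 0.49 and -0.91 ± 0.14) and the R-spondin receptor Lgr4 (-0.65 ± 0.31 and 0.60 ± 0.36) were lower with DMBA. Sox9 had 13 features in the DMBA table and 1 in the other, and on the shared accession it read 2.11 and -0.72. Kremen1 averaged 0.96 ± 0.44 and 2.32 ± 0.99 on the shared accession, where untreated 2 (0.51) lay below the DMBA mean, so that the groups overlapped and Kremen1 no longer stood apart. Lgr4 had 2 features in the DMBA table and 1 in the other, with no shared accession, so its difference could not be looked at in this way. As for the members, group and table cannot be told apart in these differences.

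**Figure D4:**
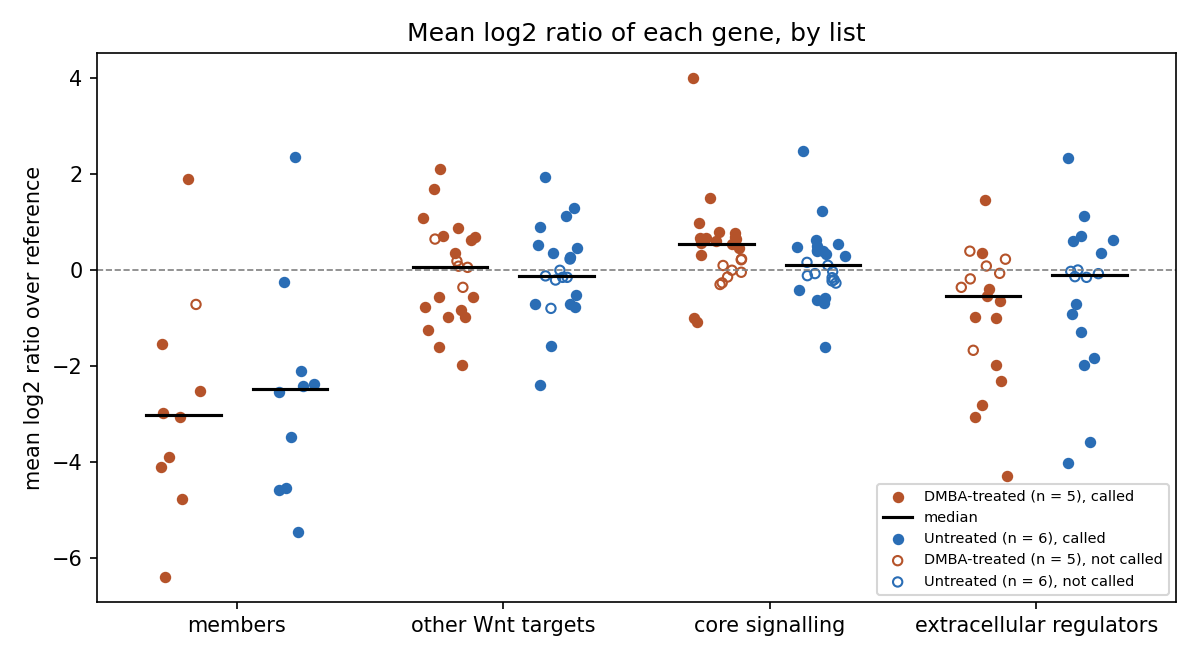
Mean log2 ratio over reference (vertical axis) of each gene of the 10 members and of 3 lists of other Wnt genes (horizontal axis), with filled points for called and open points for uncalled genes and a bar for each median. The members' medians of -3.03 and -2.49 lie well below those of the other lists, which run from -0.56 to 0.54. The members and lists were chosen with earlier results of these data known.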

How the data were processed

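The 11 2-colour arrays comprised 5 DMBA-treated and 6 untreated tumours, in 1 table per group, each from a different array platform. The deposited values are log ratios of tumour against reference, per the labels, centred near 0 on each array (medians from -0.013 to 0.008), and were used as log2 as the authors deposited them. The base is not stated; their range, from -10.70 to 8.37, is too wide for a log10 of scanner intensities. Direction was read from organ lists, whose medians per array ran from -4.59 to -3.52 for liver, -3.73 to -2.71 for muscle and -1.98 to -1.23 for brain. All arrays had 1 dye orientation. Normalization, background correction and filters are not given in the sources used here.

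Features were named from the platform annotation (33653 and 18658 with 1 symbol, 56 and 30 with several and left out, 11511 and 3887 with none), and 33517 and 18445 were matched to RefSeq symbols. A gene's value was the mean of its features, array by array. Each group was fitted alone with an intercept in limma 3.58.1 (R 4.3.3, lmFit and eBayes, checked on simulated data). The two-sided test against 0 used Benjamini-Hochberg adjustment over all genes, or all features, of the table, and called at 0.05. All 10 members and their features were named. Of each Wnt list, the 4 genes with the largest mean among those called alike in both groups and each gene standing apart were named, and of each cell type list the 2 largest. The members and lists were chosen with earlier results of these data known. Alternatives were the median of features, quantile normalization, zeros as missing, a 1.5-fold threshold, a trended robust fit, each tumour left out, averaging DMBA 3 and DMBA 4 and, chosen after seeing the data, shared accessions.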

Additional observations from a re-analysis of the deposited data

Results flagged for a closer look

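Of 98 sets of values examined, 4 held a tumour far from the others of its group, where chance gives about 1 in 20 sets. Sostdc1 was highest in DMBA 2 at -5.54, with the next tumour at -6.45, and without DMBA 2 its mean was -6.61 (adjusted p = 1.18e-05). Apcdd1 was highest in untreated 2 at -4.19, with the next at -4.60. Wif1 was highest in the same tumour at -3.28, with the next at -4.58. Csn3 was lowest in untreated 3 at 1.63, with the next at 2.87.

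Of the members and the genes of the Wnt and cell type lists, 3 had every tumour of a group above 0 and every tumour of the other below it. Sox9 was 2.81 higher with DMBA than without, and Lgr4, which had no shared accession, differed by -1.24 (DMBA minus untreated). Apc, a part of the β-catenin destruction complex, was 0.86 higher with DMBA (0.45 ± 0.14, n = 5, and -0.42 ± 0.07, n = 6). None of these differences was tested, since group and table cannot be told apart.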

How the results depend on the processing

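Over the members' values and calls, 233 alternative values were unchanged, 1 gained a call, 3 lost one, 3 moved by more than the spread, and none reversed. Unchanged meant the same direction and side of the threshold. On shared accessions no test was made, and there it meant the same direction and a shift of the mean smaller than the SD over tumours. The gain was Lef1 with DMBA, without DMBA 2. The losses were Axin2 in untreated tumours, against a 1.5-fold threshold (adjusted p = 1.0) and without untreated 3 or 5. Those that moved were the DMBA means of Apcdd1 (-4.29), Rnf43 (2.10) and Lgr5 (-3.16) on shared accessions, where the difference of Lgr5 between the groups also turned from 0.87 to -0.74. Testing against 1.5-fold reduced the calls over all genes from 11031 to 5082 with DMBA and from 10281 to 4056 without. The count of members standing apart was 2. It was 5 by non-overlap alone and 1 on shared accessions (Axin2, whose single feature per table this setting could not change). Leaving out each tumour in turn gave 2 to 3, with Sostdc1 added without DMBA 2. No paired analysis was possible because the tumour numbers follow accession order and pair no samples. The number of arrays limits the precision, and spot intensities over background were not used.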
